A study of Arabidopsis thaliana with 9 samples.

Results

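Nuclear auxin signalling was described across 49 genes: 6 TIR1/AFB receptors, 28 Aux/IAA repressors and 15 ARF transcription factors of Arabidopsis thaliana. The genes were taken by locus identifier from a list, not by their measured values, and all 49 were among the 21430 loci measured. Expression was measured on 9 arrays of cells sorted as quiescent centre (QC) cells, the slowly dividing cells at the core of the root stem cell niche, by GFP driven from the WOX5 promoter. All plants, controls included, were plt1 plt2 double mutants rescued by PLT2 joined to the glucocorticoid receptor (PLT2-GR) and driven by the PLT2 promoter, and with the WOX5 reporter. PLT2 is a root meristem transcription factor, and dexamethasone lets such a receptor fusion enter the nucleus. At 5 days the seedlings were moved to plates with DMSO alone for 1 h (mock), with 10 µM dexamethasone for 1 h, or with 10 µM dexamethasone for 4 h, and each group had 3 arrays labelled biological replicates. Root tips were cut and digested to protoplasts before sorting, in all groups. Spread among these arrays is what the p-values are based on. The samples analysed here hold no 4 h mock and no treated plants lacking the fusion, so at 4 h the effects of PLT2-GR, of dexamethasone itself and of the longer time on new plates cannot be told apart.

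Auxin acts in the nucleus by bringing together a TIR1/AFB F-box protein and an Aux/IAA protein. The Aux/IAA protein, held by a short degron, is then marked for degradation by the SCF ubiquitin ligase that contains the F-box protein. Aux/IAA proteins bind ARF transcription factors and recruit TOPLESS co-repressors, so their loss frees the ARFs to regulate target genes. Many Aux/IAA genes are themselves switched on by auxin. In the root this pathway is known for its part in placing the QC, in stem cell maintenance and in lateral root initiation. ARF5 (MONOPTEROS) acts upstream of PLT gene expression in the embryonic root.

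After 4 h the receptors AFB1, AFB2 and AFB3, the repressors IAA2 and IAA16 and the activator ARF19 were lower than in mock, and no member was called higher. ARF19 fell by 1.21 ± 0.08 log2 units (SE, n = 3 each), to 0.433 of its mock level, and AFB1 fell by 0.84 ± 0.13, to 0.560 of it. At 1 h 0 of the 49 genes were called. The test was limma's moderated test fitted to all loci, with Benjamini-Hochberg adjustment over all loci and a call at an adjusted p under 0.05. At 4 h against mock, 6 of 49 members were called (12.2%), beside 10.8% of all loci, a share near that of the whole array. By direction, 0 members were called up, beside 5.53% of all loci, and 6 were called down, beside 5.23%. At an unadjusted p under 0.05 the members numbered 17, beside 26.8% of all loci. Of these members 3 were up and 14 down, beside 2803 and 2934 of the 21430 loci. Over the 49 members the log2 fold changes had a median of -0.19, beside 0.01 over all loci. Without 4 h replicate 3 the count of called members was 14, of which 2 were up and 12 down, beside 19.4% of all loci in that fit. It was 2 without mock replicate 2, beside 3.21% of all loci, and 2 without mock replicate 3, beside 4.18%.

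**Figure D1:**
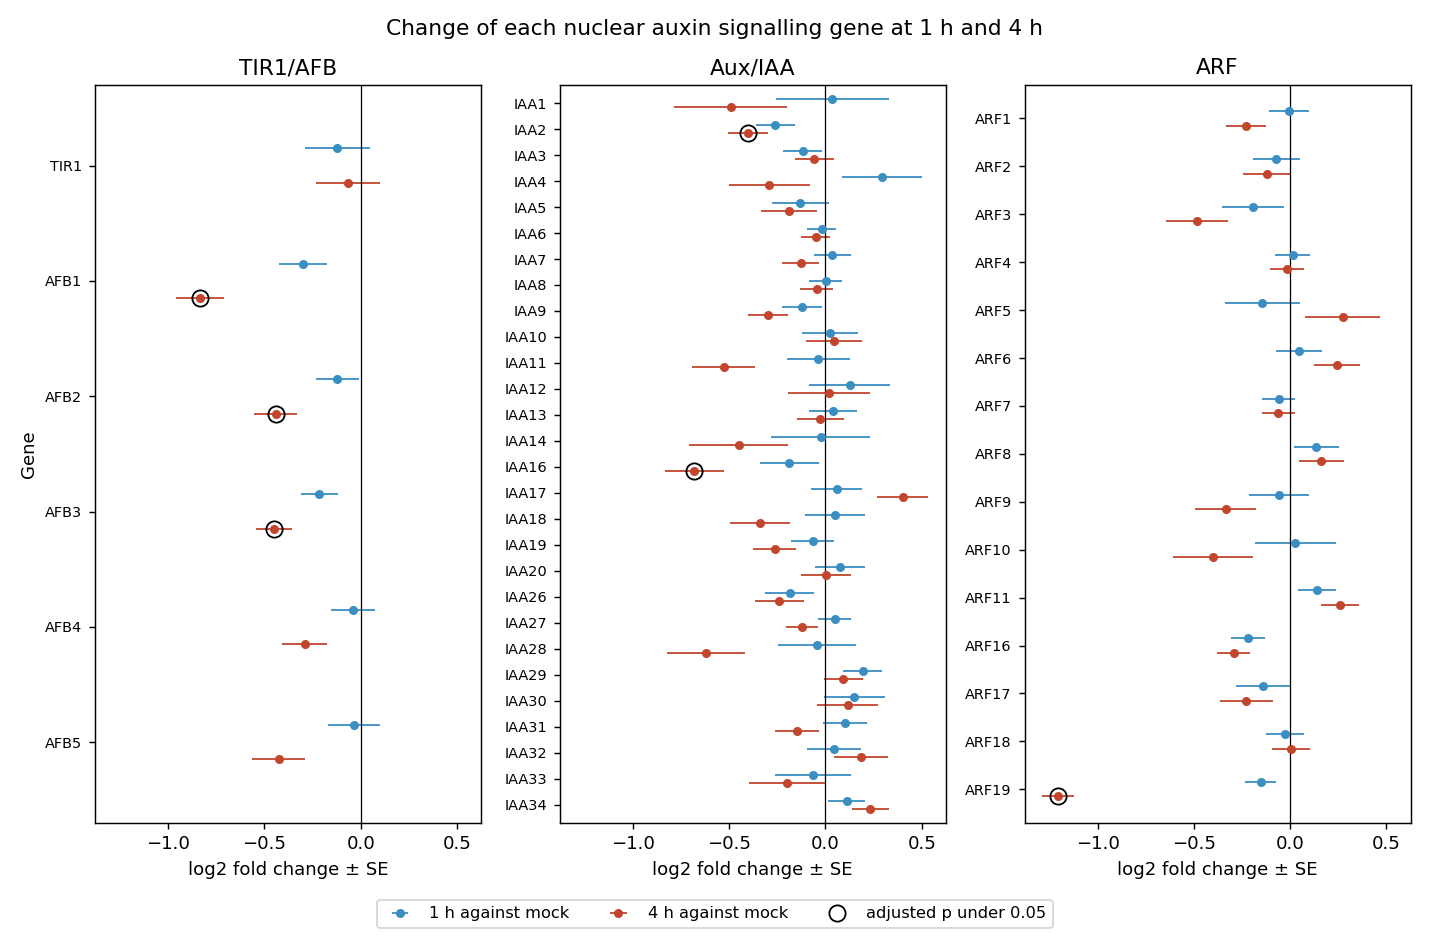
Log2 fold change with its standard error (x axis) for each of the 49 genes (y axis), at 1 h against mock (blue) and at 4 h against mock (red), in 1 panel for each family. Ringed points passed an adjusted p of 0.05: AFB1, AFB2, AFB3, IAA2, IAA16 and ARF19, all at 4 h and all to the left of 0.

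Properties of the arrays and the levels of marker genes are given here beside these values. On the first principal component, which held 48.9% of the variance, the 4 h arrays lay at 40.6, 27.3 and 4.25 for replicates 1, 2 and 3, the 1 h arrays at -12.8 to 0.60 and the mock arrays at -19.5 to -15.0. On 4 h replicate 1 the poly-A control RNAs averaged 8.79 log2 units, against 6.16 to 6.66 on the other arrays. The 5S rRNA control stood at 5.63 on that array, against 4.59 to 5.04 on the others. In the fit with array weights, 4 h replicate 1 had the lowest weight (0.38) and 4 h replicate 3 the next (0.52). Of the QC and niche markers 5 of 6 were measured; WOX5 was not among the loci analysed here, and AGL42 lay below the first quartile of signal on every array. The summed level of these 5 markers was 9.73 to 10.0 log2 units at 4 h, against 9.70 to 9.83 in mock. Markers of other root cell types were present, with summed log2 levels of 11.43 to 11.76 at 4 h against 11.77 to 12.14 in mock for 6 root cap genes, 6.86 to 7.21 against 7.41 to 7.82 for 4 endodermis genes, 8.95 to 9.46 against 9.43 to 9.63 for 5 epidermis genes and 8.58 to 8.70 against 8.82 to 9.03 for 7 vascular genes. The 4 h range lay below the mock range for the root cap, endodermis and vascular genes, and the ranges overlapped for the epidermis. Of these markers, 1 was called up at 4 h (FEZ, 1 of 6 root cap genes), beside 5.53% of all loci. Called down were 5, beside 5.23% of all loci. These were ESB1 (1 of 4 endodermis genes), RHD6 and RHD2 (2 of 5 epidermis genes), and TMO5 and XCP1 (2 of 7 vascular genes). PLT1 and PLT2 stood at 0.09 and -0.02 at 4 h against mock and neither passed. All plants were plt1 plt2 mutants carrying PLT2-GR, so neither value measures an intact native gene. Signal of the fusion and of the mutant PLT2 locus cannot be told apart here. Both genes are among the 5 QC and niche markers, so the summed level of those markers has the same limit. In sorted bulk cells, fewer cells of one type and less RNA per cell cannot be told apart. The part of these markers and arrays in the falls of the auxin signalling genes was not tested.

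Of the 6 receptors, 3 fell at 4 h, 0 rose and 3 did not pass, with a family median of -0.43. AFB1 (AT4G03190), a mostly cytoplasmic member of the family needed for the fastest root growth response to auxin, had log2 levels of 9.59, 9.84 and 10.16 on the 4 h arrays, against 10.63, 10.73 and 10.74 on the mock arrays. All 3 values at 4 h lay below all mock values, with replicate 1 lowest. The 1 h arrays, at 10.41, 10.38 and 10.41, lay between the other groups without overlap with either. AFB1 was called at 4 h (adjusted p = 0.00529) and not at 1 h (-0.30 ± 0.13, adjusted p = 0.998); between 4 h and 1 h the difference was -0.54 ± 0.13 (adjusted p = 0.0579).

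AFB2 (AT3G26810) and AFB3 (AT1G12820) are close paralogs of TIR1 and, with it, targets of the microRNA miR393. AFB2 had log2 levels of 7.24, 7.59 and 7.35 at 4 h, against 7.97, 7.80 and 7.73 in mock, a fall by 0.44 ± 0.11 (adjusted p = 0.0330). AFB3 had log2 levels of 7.40, 7.17 and 7.46 at 4 h, against 7.75, 7.81 and 7.83 in mock, a fall by 0.45 ± 0.09 (adjusted p = 0.0169). In both genes no 4 h array reached the lowest mock array. At 1 h AFB2 had 7.73, 7.82 and 7.59, which overlapped mock, and AFB3 had 7.49, 7.67 and 7.58, all below mock. The call of AFB2 was lost without 4 h replicate 1 (adjusted p = 0.0981) and without any 1 of the mock arrays (0.0634 to 0.108), as well as with array weights (0.0699) and in a fit of only 4 h and mock arrays (0.0696). That of AFB3 was lost without 4 h replicate 2 (0.0509), mock replicate 2 (0.0674) or mock replicate 3 (0.0632).

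TIR1 (AT3G62980), the receptor through which the pathway was first defined, did not pass. Its log2 levels were 8.66, 9.21 and 8.84 at 4 h, against 8.79, 9.09 and 9.03 in mock, and the groups overlapped in full. The difference at 4 h was -0.07, with a 95% interval of -0.44 to 0.30, whose lower end lies close to the falls of AFB2 and AFB3. At 1 h TIR1 had 9.13, 8.85 and 8.57. AFB4 (AT4G24390) and AFB5 (AT5G49980), a separate branch of the family that also binds the synthetic auxin picloram, did not pass either. AFB5 had 7.71, 8.23 and 8.20 at 4 h, against 8.35, 8.56 and 8.51 in mock. Its 4 h arrays lay wholly below mock, with replicate 1 furthest away, and its difference was -0.43 ± 0.14 (adjusted p = 0.0701). AFB4 stood at -0.29 ± 0.12 (adjusted p = 0.137). AFB1 to AFB5 all had 4 h arrays wholly below mock, as had 2868 of 21430 loci. In either direction, 27.7% of all loci had groups that did not overlap.

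**Figure D2:**
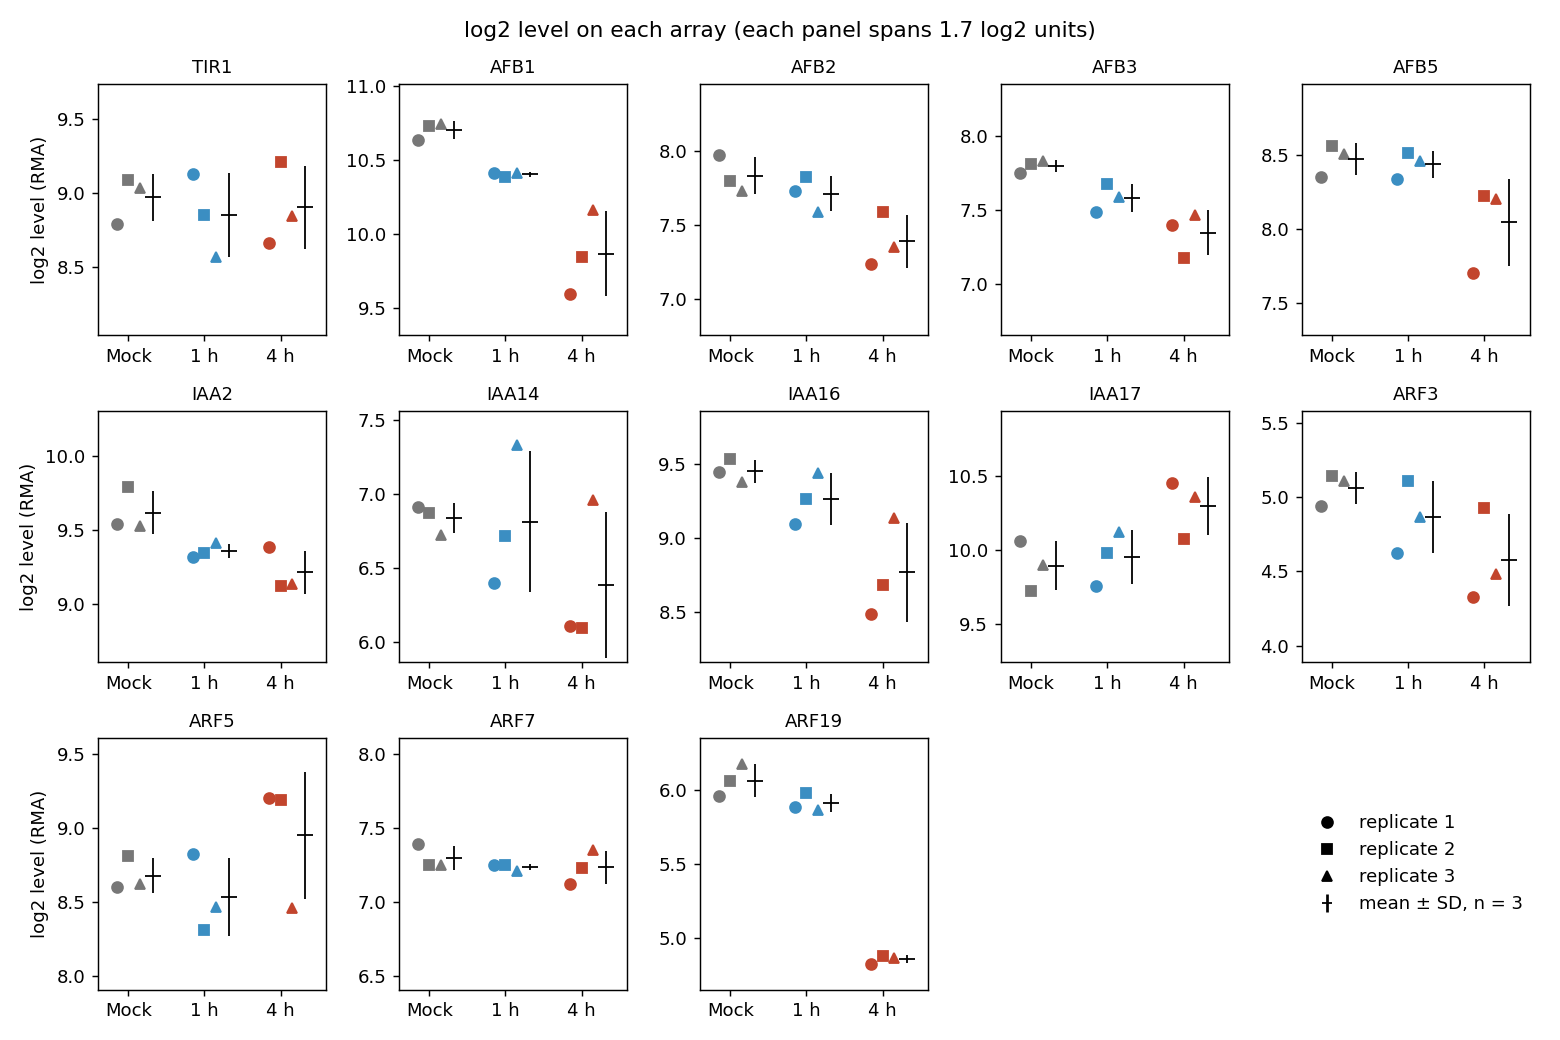
Log2 level (RMA, y axis) on each of the 9 arrays for 13 genes, by group (x axis: mock, 1 h and 4 h of dexamethasone); symbols mark the replicate number, and black bars give the mean with its SD over 3 arrays. ARF19 lies at 4.83 to 4.88 on the 4 h arrays, against 5.96 to 6.18 on the mock arrays, while TIR1 and ARF7 overlap between all groups.

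Most Aux/IAA genes did not pass. Of 28, 2 fell, 0 rose and 26 did not pass at 4 h, with a family median of -0.14. IAA16 (AT3G04730), whose stabilised mutant form makes plants resistant to auxin, had log2 levels of 8.48, 8.68 and 9.13 at 4 h, against 9.44, 9.53 and 9.37 in mock. The 3 values at 4 h lay below all mock values, and replicate 3 came nearest to them. The fall was 0.68 ± 0.15 (adjusted p = 0.0214), and the 1 h arrays had 9.09, 9.26 and 9.43. IAA2 (AT3G23030), an auxin-induced gene whose promoter is used as a reporter of auxin response in roots, had 9.38, 9.12 and 9.14 at 4 h, against 9.54, 9.79 and 9.53 in mock. It fell by 0.40 ± 0.10 (adjusted p = 0.0332). On the 1 h arrays IAA2 had 9.32, 9.34 and 9.41, already below every mock array, though not called (-0.26 ± 0.10, adjusted p = 0.998).

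Both calls depended on which arrays were in the fit. IAA16 passed in 4 of the 9 fits that left out 1 array and was lost without 4 h replicate 1 (adjusted p = 0.0628), 4 h replicate 2 (0.0691) or any 1 mock array (0.0589 to 0.0879). IAA2 passed in 3 of 9, and its adjusted p ranged from 0.0266 to 0.123 over them. It was lost without 1 h replicate 2, without 4 h replicate 2 or 3, and without any 1 mock array. In a fit of only the groups compared, neither IAA16 (adjusted p = 0.0509) nor IAA2 (0.0815) passed.

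IAA17 (AT1G04250, AXR3), whose stabilised form disturbs root gravitropism and root hairs, was the one member with a difference of more than 0.3 upward. Its log2 levels were 10.45, 10.07 and 10.36 at 4 h, against 10.06, 9.73 and 9.90 in mock, so the lowest 4 h array lay just above the highest mock array. The difference was 0.40 ± 0.13 and did not pass (adjusted p = 0.0786). IAA14 (AT4G14550, SOLITARY-ROOT), which holds back lateral root initiation through ARF7 and ARF19, had 6.11, 6.09 and 6.96 at 4 h, against 6.91, 6.87 and 6.72 in mock. Replicate 3 at 4 h was above all mock arrays while replicates 1 and 2 were below them, and the difference of -0.45 ± 0.26 did not pass, with a 95% interval of -1.02 to 0.12. At 1 h IAA14 had 6.39, 6.71 and 7.33.

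In 3 places of the genome a pair of members are next to each other with 0 coding genes between them in the gene table used: IAA1 and IAA14, IAA2 and IAA7, and IAA3 and IAA17. IAA1 followed the same order of arrays as IAA14 at 4 h, with 6.92, 6.44 and 7.76 against 7.62, 7.61 and 7.37 in mock, and a difference of -0.49 (adjusted p = 0.325). IAA7 (AXR2) had 10.24, 9.99 and 10.24 at 4 h, against 10.29, 10.28 and 10.29 in mock, a difference of -0.13 (adjusted p = 0.445), beside the fall of its neighbour IAA2. IAA3, next to IAA17, lay below the first quartile of signal, which was 3.55 to 3.63 log2 units, on all 9 arrays, as did IAA31 and ARF11, where array signal responds least to changes.

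Other Aux/IAA genes with differences beyond 0.5 in size were IAA28 (-0.62, adjusted p = 0.0754), which acts in the first steps of lateral root formation, and IAA11 (-0.53, adjusted p = 0.0639). In both, at least 1 array at 4 h fell within the mock range: IAA28 had 5.32, 5.30 and 6.06 at 4 h, against 6.46, 6.03 and 6.05 in mock, and IAA11 had 6.16, 5.60 and 5.40 at 4 h, against 6.12, 6.35 and 6.29 in mock. IAA9 (-0.30), IAA19 (-0.26) and IAA26 (-0.24) had 4 h arrays wholly below mock and IAA34 (0.23) wholly above, and none passed. With the genes given earlier, 6 of 28 Aux/IAA genes lay wholly below mock and 2 wholly above. Of 21430 loci, 2868 lay below and 3066 above. A known division of the family is by the degron. The 22 Aux/IAA genes whose protein has it had a median of -0.22 at 4 h, with 2 called down. Of their 22 differences 18 were below 0, beside 10265 of 21430 over all loci. The 6 without an intact one (IAA20, IAA30, IAA31, IAA32, IAA33 and IAA34) had a median of 0.06, with 0 called, 1 at an unadjusted p under 0.05 and differences of -0.20 to 0.23. Of these 6, 4 had a mean level below the 40th percentile of probe sets, as did 7 of the 22. Neither the difference between these subgroups nor the part of dim signal in it was tested.

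Of the 15 ARF genes, 1 fell, 0 rose and 14 did not pass at 4 h, with a family median of -0.12. The fall was that of ARF19 (AT1G19220), a transcriptional activator that acts with ARF7 in lateral root initiation and in the root's auxin response. Its log2 levels were 4.83, 4.88 and 4.87 at 4 h, against 5.96, 6.06 and 6.18 in mock. The values at 4 h lay close together and far below the lowest mock array. The 1 h arrays had 5.89, 5.98 and 5.86, which overlapped mock (-0.15 ± 0.08, adjusted p = 0.998). ARF19 was called at 4 h against mock (adjusted p = 5.37e-05) and at 4 h against 1 h (-1.05 ± 0.08, adjusted p = 0.00115). Of all loci, 0.187% had a lower fold change at 4 h than ARF19. Both calls held without any 1 of the 9 arrays, with differences from mock of -1.26 to -1.15.

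ARF7 (AT5G20730, NPH4), which overlaps with ARF19 in function, did not pass. It had 7.12, 7.23 and 7.35 at 4 h, against 7.39, 7.25 and 7.25 in mock, and 7.25, 7.25 and 7.21 at 1 h. The difference at 4 h was -0.06, with a 95% interval of -0.25 to 0.13, which leaves out a fall as large as that of ARF19. ARF5 (AT1G19850, MONOPTEROS) had 9.20, 9.19 and 8.45 at 4 h, against 8.60, 8.81 and 8.62 in mock. Replicates 1 and 2 were above all mock arrays and replicate 3 below them, and the difference of 0.27 ± 0.20 did not pass (adjusted p = 0.427); without 4 h replicate 3 it was 0.52 (adjusted p = 0.0293). The other activators ARF6 and ARF8, both targets of miR167, stood at 0.24 and 0.16, and neither passed.

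The 10 ARFs outside the activator class had a median of -0.23 at 4 h and 0 calls; 3 had an unadjusted p under 0.05. ARF3 (AT2G33860, ETTIN), which lacks the interaction domain shared with Aux/IAA proteins and is a target of trans-acting siRNAs, had 4.33, 4.93 and 4.48 at 4 h, against 4.94, 5.14 and 5.11 in mock. The highest 4 h array lay just under the lowest mock array, and the difference was -0.49 ± 0.16 (adjusted p = 0.0795). The 3 targets of miR160, ARF10, ARF16 and ARF17, of which ARF10 and ARF16 act in root cap differentiation, stood at -0.40, -0.30 and -0.23. Of these, ARF16 had non-overlapping arrays (7.33, 7.30 and 7.32 at 4 h, against 7.44, 7.72 and 7.68 in mock) and an adjusted p of 0.0574. ARF10 had 7.13, 6.88 and 7.73 at 4 h, against 7.64, 7.63 and 7.68 in mock, with replicate 3 above mock and the others below. ARF1 (-0.23) and ARF9 (-0.34) did not pass, and ARF11 (0.26) was among the 3 dim genes.

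**Figure D3:**
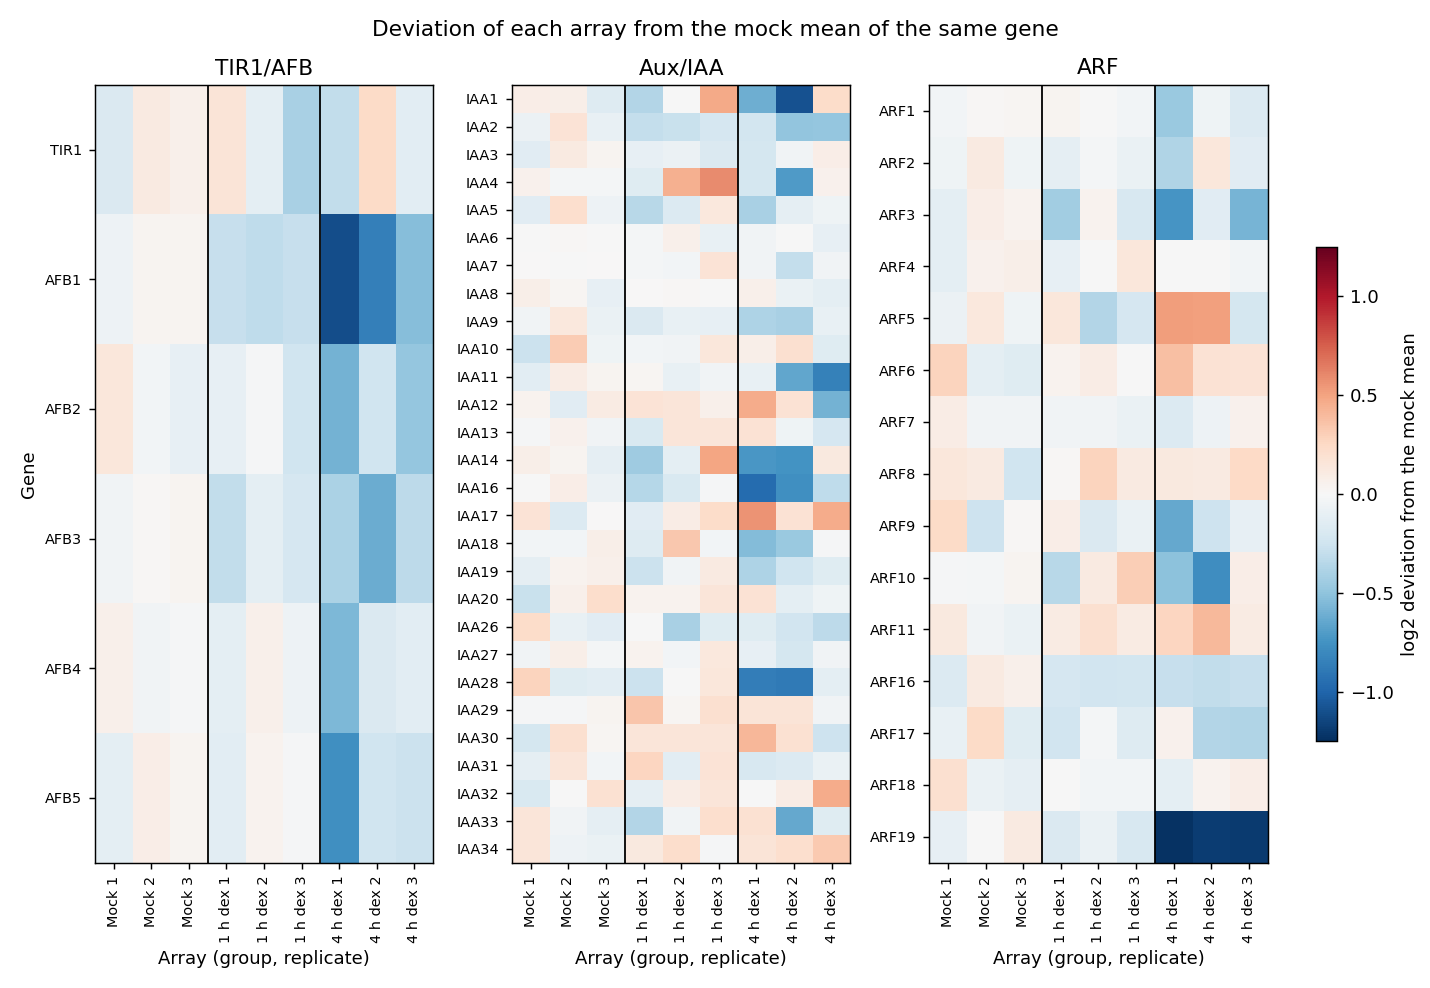
Deviation of every array (x axis) from the mock mean of the same gene (y axis), in log2 units, for all 49 genes; blue is lower and red higher than the mock mean. ARF19 is blue on all 3 arrays at 4 h, while IAA1, IAA14 and ARF10 are, among the 4 h arrays, blue on replicates 1 and 2 only.

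At 1 h against mock, 0 of 49 members were called, beside 0.187% of all loci (0.177% up and 0.00933% down). Of all loci 4.34% had an unadjusted p under 0.05 (499 up and 431 down). Among the members 4 had one, all lower at 1 h. These were AFB1, AFB3 (-0.21), IAA2 and ARF16 (-0.22), and each had its 3 arrays at 1 h below the 3 mock arrays. With IAA9 they made 5 members whose arrays did not overlap, where 11.1% of all loci did not in either direction. All 5 lay below mock, as did 1158 of 21430 loci. The median difference at 1 h was -0.12 for the receptors, 0.03 for the Aux/IAA genes and -0.06 for the ARFs, beside -0.01 for all loci. The comparisons of 1 h and 4 h with mock share the mock arrays, so the values of these 4 genes at both times are not independent of each other. Between 4 h and 1 h, 1 of 49 members was called (ARF19, lower), beside 1.85% of all loci (0.887% up and 0.966% down). At an unadjusted p under 0.05 there were 11, beside 20.8% of all loci. Of the 49 differences 38 were below 0, beside 9626 of 21430 over all loci.

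No gene of the pathway's partner lists was called at 4 h, beside 10.8% of all loci. At an unadjusted p under 0.05 the share of all loci was 26.8%. With so few genes measured, the lack of calls does not set these lists apart from the array. The SCF ubiquitin ligase and the cycle that attaches the RUB modifier to it were covered by 10 genes, among them ASK1, CUL1 and AXR1; 0 of 10 were called at 4 h, 2 had an unadjusted p under 0.05, and the differences ran from -0.12 to 0.29 with a median of 0.03. Of the TOPLESS co-repressors, 3 of 5 were measured and 0 were called, with 0 at an unadjusted p under 0.05 and differences of -0.02 to 0.13. Of 9 further ARF and Aux/IAA loci, 4 were measured, 0 were called and 0 had an unadjusted p under 0.05. Among these 4, 3 lay below the first quartile of signal on every array. Downstream, of 23 genes known to respond to auxin or to ARFs, 20 were measured. At 4 h 1 of them rose, 3 fell and 16 were not called, beside calls at 10.8% of all loci. At an unadjusted p under 0.05 there were 8 of the 20, 2 up and 6 down, beside 26.8% of all loci. Below the first quartile of signal on every array lay 6 of the 20. The count of calls was 7 without 4 h replicate 3, where 19.4% of all loci were called, and 1 without mock replicate 2, where 3.21% were. GH3.3, which conjugates auxin to amino acids, had 5.12, 4.84 and 4.15 at 4 h, against 7.58, 7.84 and 7.49 in mock, and 6.24, 6.38 and 5.96 at 1 h. All GH3.3 arrays at both times lay below mock, with falls by 2.93 at 4 h and by 1.44 at 1 h (adjusted p = 0.0292). At 4 h GH3.1 of the same family fell by 0.54 and the ARF5 target TMO5 fell by 0.52, while the ARF5 target TMO7 rose by 0.53. TMO5 also counts among the vascular markers above. The median of these 20 genes was -0.09.

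**Figure D4:**
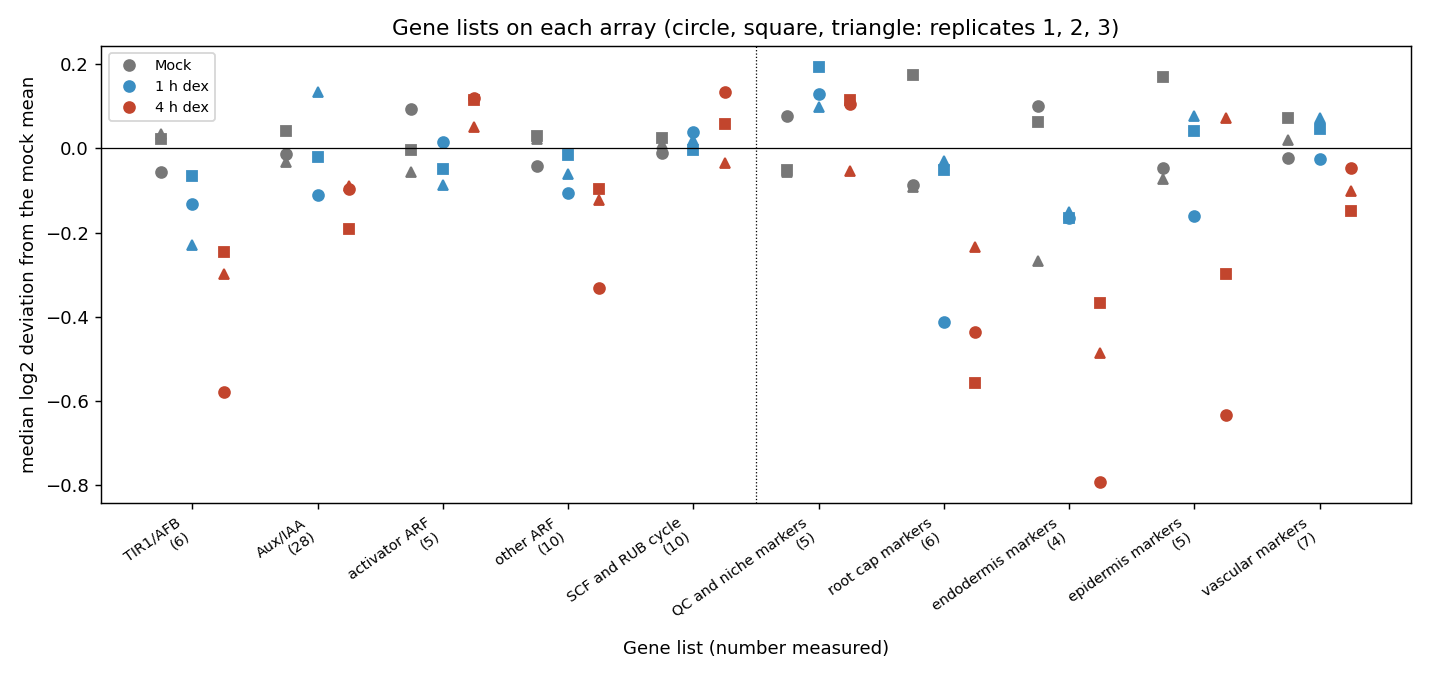
Median log2 deviation from the mock mean (y axis) on each array for the receptor, Aux/IAA, ARF and SCF lists and for markers of root cell types (x axis, number measured in brackets); colours mark mock, 1 h and 4 h, and symbols the replicate number. The receptors lie at -0.58 to -0.25 on the 4 h arrays, against -0.06 to 0.03 on the mock arrays, and the endodermis markers at -0.79 to -0.37 on the 4 h arrays, against -0.27 to 0.10 on the mock arrays.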

How the data were processed

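Expression values were deposited on the log2 scale, 1 per probe set, and were computed by the authors using RMA, per the submitters' processing notes; limma 3.24.15 is named there too. The genome build, the kind of array and how probe sets were defined are not stated in the sources used here, so no coordinates are printed, and probes shared between close paralogs or neighbouring genes cannot be recognised. Values were used as deposited, with 64 control probe sets left out of the fit. All 49 members matched the TAIR10.1 gene table, 40 by symbol and 9 through a synonym. One model was fitted to all 9 arrays with limma 3.58.1 in R 4.3.3 (lmFit and eBayes, 6 degrees of freedom from residuals and 4.47 from the prior). Its 3 contrasts were tested two-sided over 21430 loci, and all adjusted p-values come from it. Errors are the model's standard errors, with a median of 0.108 at 4 h; the small number of arrays limits the precision. On simulated data, changes of 1 log2 unit were recovered at 90% (up) and 98% (down) for 4 h against mock, and changes of 0.5 at 50% and 54%, with 5.81% false calls. For 1 h against mock, upward changes of 1 unit were recovered at 80%, which missed the first bound for passing (over 80%). That bound was then lowered to 70% after this was seen. On the measured arrays 10.8% of loci were called at 4 h against mock, and the 4 h arrays had weights of 0.38, 1.35 and 0.52. Whether the recovery rates above hold for these arrays was not tested.

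The members were taken by locus, with no cut on their values. They and the other gene lists were nevertheless chosen with earlier results of these data known. The split of the Aux/IAA genes by degron was made after the values were seen. By rule, values on every array are given for members called in any contrast, for members with non-overlapping arrays at 4 h and a difference of at least 0.3, and for TIR1, IAA14, ARF5, ARF7 and ARF19. The other members given by name with values, among them IAA1, IAA7, IAA11, IAA28, ARF10 and ARF16, were chosen after their values were seen, as was GH3.3 for its values by array. Counts, family medians and the values of most named members were recomputed, but not those of single genes outside the 49. This was done after quantile normalization, with array medians set equal, and without probe sets below the 40th percentile. It was also done under other fits: eBayes with trend and robust settings, weighting of arrays, and a fit of just the groups compared. The last fits had a block for the replicate number or left out each array. Protein, promoter and microRNA sequences were not used here.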

Additional observations from a re-analysis of the deposited data

Results flagged for a closer look

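ARF19 is listed because its effects at 1 h and at 4 h, both set against the same mock arrays, differed from each other: at 4 h minus 1 h the difference was -1.05 log2 units (limma, adjusted p = 0.00115). All 3 arrays at 4 h (4.83 to 4.88) lay below all 3 at 1 h (5.86 to 5.98).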

How the results depend on the processing

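ARF19 and AFB1 were the 2 of 6 members called at 4 h whose call held in every alternative, including without any 1 array; AFB2, AFB3, IAA2 and IAA16 each lost it in at least 1. Followed here were the members given a fold change of their own other than IAA26, together with IAA4 and IAA18. The remaining members were not followed. Of their 606 values under 16 alternatives, 556 kept their direction and side of the threshold, 23 lost and 25 gained a call, and 2 had the opposite sign. Those 2 were TIR1 at 4 h, at 0.053 with array weights and at -0.22 to 0.055 without single arrays; the cause was not tested.

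At 4 h against mock, 3 members and 1067 loci were called with only the groups compared, a fit with fewer samples, and 2 auxin response genes. Without single arrays the counts were 2 to 14 members, 688 to 4153 loci and 1 to 7 auxin response genes. At 1 h against mock, 79 loci were called with array weights, 65 with only the groups compared and 6 to 61 without single arrays, while members stayed at 0. At 4 h against 1 h, 2 members were called without the dim probe sets, 2 with trend and robust eBayes and 6 with array weights, and 1 to 9 without single arrays; of all loci, 1699 were called with array weights, 4 with only the groups compared and 3 to 2808 without single arrays. The Aux/IAA median at 4 h was -0.29 without the dim probe sets and -0.18 to -0.073 without single arrays, and the ARF median was -0.23 without the dim probe sets, -0.050 with array weights and -0.16 to -0.023 without single arrays. The receptor median at 4 h was -0.46 to -0.31 without single arrays. At 1 h the median without single arrays was -0.15 to -0.05 for receptors, -0.028 to 0.066 for Aux/IAA genes and -0.085 to -0.022 for ARFs.

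The labels give all groups the same replicate numbers but do not say what a shared number marks. The numbers were therefore not taken to pair the arrays. Deviations of same-numbered arrays from their group means correlated at -0.13 to 0.27, against -0.46 to 0.43 for arrays of different numbers. With the replicate block, 7 members and 2340 loci were called at 4 h against mock: AFB5 (adjusted p = 0.0305) and ARF3 (0.0214) passed and IAA2 (0.0523) did not.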

Other observations

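On 8 of the 49 members 4 h replicate 3 lay within the mock range while replicates 1 and 2 at 4 h both lay outside it on the same side (16.3%, beside 12.6% of all loci). These were IAA4, IAA18, IAA27, IAA28, IAA31, ARF7, ARF9 and ARF11. For 4 h replicate 1 the same held for IAA11 and ARF17 (4.08%, beside 4.93% of all loci), and for 4 h replicate 2 for IAA6 (2.04%, beside 5.81%). Without 4 h replicate 3, the members IAA1, IAA9, IAA14, IAA18, IAA28, ARF10 and AFB5 were called down and ARF5 and ARF11 up, in addition to AFB1, AFB2, AFB3, IAA16 and ARF19. In the same fit 4153 of all loci were called (19.4%), against 2305 (10.8%) with all arrays.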
